A study of Mus musculus with 6 samples.

Results

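The genes described here are 42 genes of cholesterol and fatty acid synthesis, of their regulators and of sterol transport. They were chosen by name, as a module proposed with earlier results of these data known, and 40 of the 42 had a row of their own among the 19938 genes measured. A gene with several rows is represented by the one with the highest mean level over all 6 samples, and that mean is the only measured value the rule itself used. Acat2 and Soat1 are not analysed here.

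The samples are array measurements of cells grown from 1 kind of mouse embryonic stem (ES) cell, of the W4/129S6 background, in which the Nkx2-1 gene carries a knock-in GFP reporter. Nkx2-1 is a transcription factor that marks the early lung and thyroid and part of the forebrain. After 14 days of differentiation the cells were sorted into GFP-positive cells (genotype label Nkx2-1GFP+, called Nkx2-1 high, 3 samples) and GFP-negative cells (genotype label Nkx2-1GFP-, called Nkx2-1 low, 3 samples). All samples share the reporter allele and the sorting, so the groups differ in reporter state and in no other allele or agent, and the labels call the samples biological replicates without saying whether each came from its own differentiation. The comparison asks how the lipid synthesis genes of the Nkx2-1 high cells, sought as lung and thyroid progenitors, stood against those of the Nkx2-1 low cells.

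Nkx2-1 itself stood at 7.62, 7.77 and 7.77 in Nkx2-1 high and 5.42, 5.23 and 5.34 in Nkx2-1 low, in the order of the sample numbers, on the log2 scale of the deposited values. All values below are on that scale, and a value is called a level or a difference (Nkx2-1 high minus Nkx2-1 low) each time. The label names the cells as ES cells, yet 0 of 4 pluripotency markers lay above the background level of 4.30, a level set from receptor genes of the nose. Levels of different genes are not compared, because each row has its own probes. Across genes, which are no replicates, Pearson r was 0.994 to 0.996 within groups and 0.988 to 0.991 between them. A gene "rose" or "fell" where it passed an adjusted p of 0.05 by limma over all 19938 genes, upward or downward in Nkx2-1 high. The ± after a difference is its standard error (SE). For a single gene it is the SE of limma, whose variance is drawn toward that of all genes. For a pair of genes it is the plain pooled SE, so the SE of a pair and of a gene are not to be compared. The p-values set a difference against the variation between these 6 samples, in limma with variance borrowed from all genes.

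Cholesterol is built from acetyl-CoA through mevalonate, isoprenoid diphosphates, squalene and lanosterol. When sterol in the endoplasmic reticulum is low, SCAP escorts the SREBP factors to the Golgi, where they are cut and released to switch on the genes of sterol synthesis, while INSIG proteins hold the complex back when sterol is plentiful. SREBP factors also act on fatty acid synthesis, and the liver X receptors, which sense oxysterols, switch on sterol exporters. In the lung, fatty acid and cholesterol synthesis feed the surfactant of the alveolar epithelium late in development.

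SREBP factors bind sterol regulatory elements, often beside sites of NF-Y and Sp1, so the 250 bases before each start site were searched in the members. RefSeq promoters of the build GRCm38.p6 were matched for 31 of the 40 members, and Abcg1, Fads1, Fdft1, Fdps, Npc1, Scd1, Scd2, Sqle and Stard4 had no match. The promoters of 5 members are shown as examples of the calls described below, and they do not show how common the strings are among the members. Hmgcs1, Msmo1 and Cyp51 fell as enzymes of the pathway, Srebf2 fell as its regulator, and Insig1 did not pass the test. Capitals mark CCAAT (or ATTGG, the same box on the other strand), TCACNCCA, which is the sterol element without its last base, and TCACNNCAC, which is the element with 1 more free base.
Hmgcs1 (chr13:119690101-119690350, plus strand): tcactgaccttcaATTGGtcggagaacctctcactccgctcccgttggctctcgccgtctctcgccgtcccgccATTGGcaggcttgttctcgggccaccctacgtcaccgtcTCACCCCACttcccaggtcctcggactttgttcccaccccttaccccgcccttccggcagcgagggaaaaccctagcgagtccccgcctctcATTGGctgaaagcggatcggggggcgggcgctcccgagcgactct
Msmo1 (chr8:64733579-64733828, minus strand): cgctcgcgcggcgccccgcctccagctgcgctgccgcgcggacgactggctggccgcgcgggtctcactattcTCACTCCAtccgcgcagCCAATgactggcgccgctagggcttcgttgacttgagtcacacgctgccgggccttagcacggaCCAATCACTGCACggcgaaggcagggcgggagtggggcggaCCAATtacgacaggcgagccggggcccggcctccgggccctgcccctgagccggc
Cyp51 (chr5:4104698-4104947, minus strand): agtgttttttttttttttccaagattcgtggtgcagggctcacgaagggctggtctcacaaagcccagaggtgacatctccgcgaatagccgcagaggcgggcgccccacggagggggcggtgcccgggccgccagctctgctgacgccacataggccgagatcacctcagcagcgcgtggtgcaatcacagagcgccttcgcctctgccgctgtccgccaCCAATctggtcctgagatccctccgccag
Srebf2 (chr15:82147019-82147268, plus strand): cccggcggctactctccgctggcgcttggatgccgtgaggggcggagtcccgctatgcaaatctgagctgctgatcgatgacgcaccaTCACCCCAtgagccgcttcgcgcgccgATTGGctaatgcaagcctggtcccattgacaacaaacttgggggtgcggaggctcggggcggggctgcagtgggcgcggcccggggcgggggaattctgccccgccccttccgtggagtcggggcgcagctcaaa
Insig1 (chr5:28071162-28071411, plus strand): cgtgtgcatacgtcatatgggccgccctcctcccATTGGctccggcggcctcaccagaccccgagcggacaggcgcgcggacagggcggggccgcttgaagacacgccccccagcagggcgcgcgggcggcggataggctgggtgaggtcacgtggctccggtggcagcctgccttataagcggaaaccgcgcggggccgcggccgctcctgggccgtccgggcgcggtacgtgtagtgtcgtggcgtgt

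Both strands were searched, and a match is a string of letters and not a measured site. Nor does a missing string show that a site is absent, since sites can differ from the string. Some genes had several start sites (32851 promoters for 27025 genes), and a gene was counted where any of its promoters held the string. The sterol element in its full form, TCACNCCAC, lay in 1 of the 31 members, Hmgcs1, between 137 and 129 bases before the start, and in 1.23% of the 27025 genes of the table. With 1 more free base it lay in 4 members, Hmgcs1, Msmo1, Hsd17b7 and Dhcr7, and in 3.63% of all genes. Without its last base, a form added after the promoters were seen, it lay in Hmgcs1, Msmo1 and Srebf2 and in 4.20% of all genes. In Srebf2 that string runs from 162 to 155 bases before the start. All of these members are among those that fell, as 14 of the 31 matched members did, and a link of string and fall was not tested. In Dhcr7 the string lay before another start site than its CCAAT boxes. The box CCAAT of NF-Y lay in 25 of the 31 members (80.7%) and in 37.5% of all genes, and the Sp1 box GGGCGG also in 25 of the 31, against 35.4% of all genes. The genes of the table were not limited to those above background, as the members all are, so these shares do not mark the members off from other expressed genes. CCAAT was present in 12 of the 14 matched members that fell and in 13 of the 16 that did not pass, and GGGCGG in 12 of the 14 and 12 of the 16. The E-box CACGTG lay in 7 members and 6.86% of all genes. The direct repeat of liver X receptors, AGGTCA repeated after a gap of 4 bases, lay in 0 members and 4 of all genes. A string this rare would hardly be met in 31 members, so its absence from them says nothing. Motifs may overlap, as CCAAT and TCACNNCAC do in Msmo1.

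Of the 40 measured genes, 18 fell, 2 rose and 20 did not pass, while 3.09% of all genes fell and 2.90% rose. The median difference was -0.29 over the 40 genes and -0.01 over all genes. All 3 Nkx2-1 high samples lay below all 3 Nkx2-1 low samples for 25 of the 40, and above them for 4, where 13.5% and 11.2% of all genes were separated in these directions. All 40 genes lay above the background level in both groups. Because the list was proposed with the falls known, these counts describe it and lend it no support. The fits without 1 sample called fewer of the 40. Leaving out replicate 1 of Nkx2-1 high gave 13, leaving out its replicate 2 gave 12, and leaving out replicate 2 of Nkx2-1 low gave 13. In these bulk samples, less RNA per cell and a smaller share of cells that express a gene cannot be told apart.

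**Figure D1:**
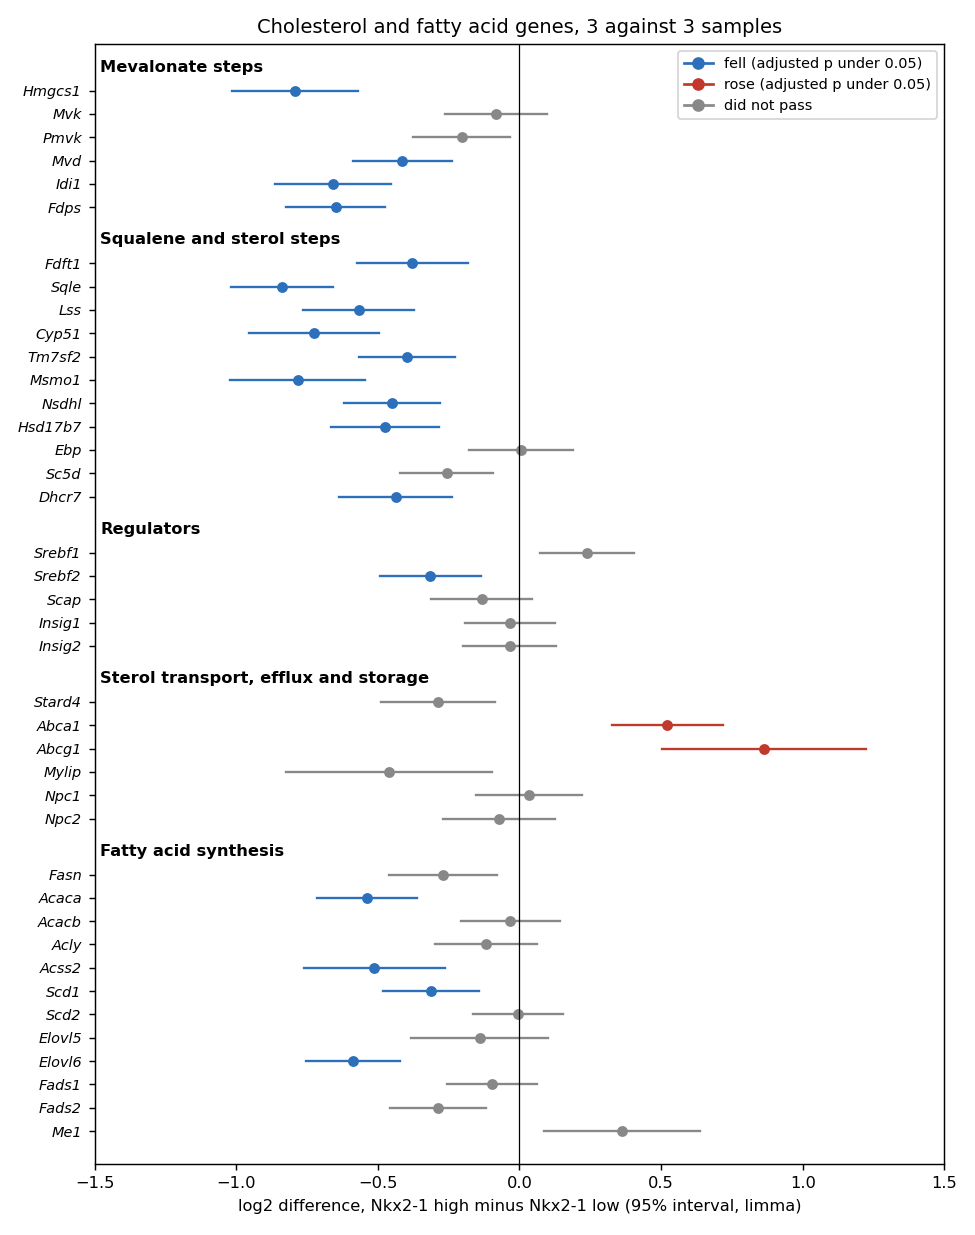
Log2 difference of each of the 40 genes (horizontal axis, Nkx2-1 high minus Nkx2-1 low, point) with its 95% interval from limma (line), 3 samples against 3, grouped by role. Genes that fell (blue) are mostly enzymes of the mevalonate and sterol steps, the 2 that rose (red) are the exporters Abca1 and Abcg1, and grey marks the 20 that did not pass.

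The steps from acetyl-CoA units to farnesyl diphosphate were lower in Nkx2-1 high at 4 of the 6 enzymes measured, and 0 rose (median difference -0.53). Hmgcs1, the synthase that makes HMG-CoA, had levels of 8.38, 8.47 and 8.71 in the Nkx2-1 high samples and 9.39, 9.23 and 9.31 in the Nkx2-1 low samples. The groups did not overlap, and the gene fell by 0.79 ± 0.10 (SE, 1.73-fold, limma adjusted p = 0.00164). Idi1, the isomerase that makes dimethylallyl diphosphate, stood at 6.90, 6.98 and 6.98 in Nkx2-1 high against 7.73, 7.45 and 7.66 in Nkx2-1 low. Its difference was -0.66 ± 0.09 (1.58-fold lower, adjusted p = 0.00280). Fdps, the synthase of farnesyl diphosphate, stood at 7.44, 7.32 and 7.36 in Nkx2-1 high against 7.98, 7.99 and 8.10 in Nkx2-1 low, a narrow range in each group. It fell by 0.65 ± 0.08 (1.57-fold, adjusted p = 0.00126). Mvd, the decarboxylase that makes isopentenyl diphosphate, stood at 6.96, 6.90 and 7.06 in Nkx2-1 high against 7.35, 7.41 and 7.40 in Nkx2-1 low, again with no overlap.

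The fall of Mvd was smaller (-0.41 ± 0.08, 1.33-fold lower, limma adjusted p = 0.0133), and it lost the call without replicate 2 of Nkx2-1 high and without replicate 2 of Nkx2-1 low (adjusted p up to 0.0694). The kinases between HMG-CoA and Mvd did not pass. Mvk, mevalonate kinase, differed by -0.08 ± 0.08 with a 95% interval of -0.26 to 0.10, and its groups overlapped. Pmvk, phosphomevalonate kinase, differed by -0.20 ± 0.08 (adjusted p = 0.175), with all Nkx2-1 high samples below all Nkx2-1 low samples. Idi1 had a second row of its own, which gave -0.60 ± 0.09 where the row used gave -0.66 ± 0.09.

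From farnesyl diphosphate to cholesterol, 9 of the 11 enzymes fell and 0 rose (median difference -0.45). Sqle, squalene epoxidase, which adds the first oxygen and is a controlled step of the pathway, had levels of 7.88, 7.88 and 8.05 in the Nkx2-1 high samples and 8.76, 8.82 and 8.73 in the Nkx2-1 low samples. It fell by 0.84 ± 0.08 (1.79-fold, limma adjusted p = 0.000367), the largest fall among the 40 genes. Msmo1, the oxidase that starts removal of the methyl groups of the sterol ring, stood at 8.25, 8.44 and 8.56 in Nkx2-1 high against 9.28, 9.03 and 9.28 in Nkx2-1 low. It fell by 0.78 ± 0.11 (1.72-fold, adjusted p = 0.00249). Cyp51, the lanosterol demethylase, stood at 7.03, 7.16 and 7.05 in Nkx2-1 high against 8.01, 7.75 and 7.65 in Nkx2-1 low, with a wider spread in Nkx2-1 low and no overlap. Its difference was -0.72 ± 0.10 (1.65-fold lower, adjusted p = 0.00320).

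Lss, the cyclase that closes the ring system to lanosterol, stood at 7.75, 7.75 and 7.94 in Nkx2-1 high against 8.33, 8.33 and 8.48 in Nkx2-1 low and fell by 0.57 ± 0.09 (adjusted p = 0.00502). Hsd17b7, a reductase of the demethylating complex, stood at 6.85, 6.89 and 6.81 in Nkx2-1 high against 7.46, 7.25 and 7.25 in Nkx2-1 low and fell by 0.47 ± 0.08 (adjusted p = 0.0103). Nsdhl, the dehydrogenase of that complex, stood at 7.22, 7.13 and 7.21 in Nkx2-1 high against 7.61, 7.60 and 7.69 in Nkx2-1 low and fell by 0.45 ± 0.07 (adjusted p = 0.00728). None of these groups overlapped, so the 3 enzymes Msmo1, Nsdhl and Hsd17b7, which act together on the methyl groups, were all lower in every Nkx2-1 high sample than in any Nkx2-1 low sample. These falls were kept in all 6 fits without 1 sample, as were those of Sqle, Cyp51, Lss, Hmgcs1, Idi1 and Fdps.

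The other falls of the sterol steps were smaller. Dhcr7, the last reductase of a branch of the pathway, fell by 0.44 ± 0.09, Tm7sf2, a sterol reductase, by 0.40 ± 0.08 and Fdft1, squalene synthase, by 0.38 ± 0.09 (limma adjusted p = 0.0189, 0.0149 and 0.0342). Dhcr7 lost the call without replicate 1 or 2 of Nkx2-1 high and without replicate 2 or 3 of Nkx2-1 low (adjusted p up to 0.0778). Tm7sf2 lost it without replicate 1 or 2 of Nkx2-1 high and without replicate 2 of Nkx2-1 low (adjusted p up to 0.0744), and Fdft1 lost it in each of the 6 fits (adjusted p up to 0.115). A second row of Fdft1 gave -0.47 ± 0.09. Sc5d, a sterol desaturase, differed by -0.26 ± 0.07 with no overlap but did not pass (adjusted p = 0.0795). It passed with only genes above background (0.0395), with a trend and robust eBayes (0.0299) and with array weights (0.0452). Ebp, the sterol isomerase, stood at 5.36, 5.52 and 5.46 in Nkx2-1 high against 5.45, 5.52 and 5.36 in Nkx2-1 low. Its groups overlapped, and its difference was 0.00 ± 0.08 with a 95% interval of -0.18 to 0.19.

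**Figure D2:**
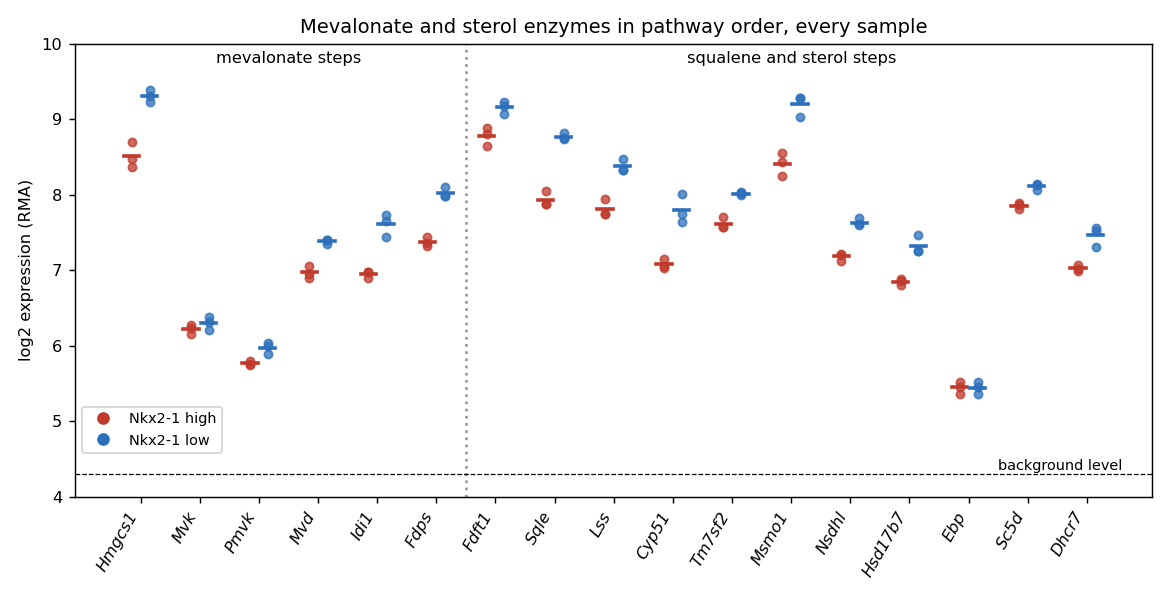
Log2 level (vertical axis) of the 17 enzymes of the mevalonate and sterol steps in pathway order (horizontal axis), with a point for each sample, bars for group means and a dashed line at the background level of 4.30. The red points (Nkx2-1 high) lie below the blue points (Nkx2-1 low) without overlap for 15 of the 17 enzymes, and they overlap for Mvk and Ebp. Over all genes, 13.5% were separated in this direction.

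Over both stretches of the pathway, 13 of 17 enzymes fell, and 16 of 17 had a negative difference. Within a group the samples lay close together. The median deviation of the 17 enzymes from their group means ran from -0.04 in Nkx2-1 high replicates 1 and 2 to 0.03 in Nkx2-1 high replicate 3, where 13 of the 17 lay above the group mean. The median difference between the groups over the same enzymes was -0.45.

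Among the regulators, Srebf2, the gene of the SREBP factor that mainly drives sterol synthesis, fell, and the other 4 did not pass. Srebf2 stood at 8.37, 8.40 and 8.52 in Nkx2-1 high against 8.69, 8.73 and 8.81 in Nkx2-1 low, with no overlap. It fell by 0.31 ± 0.08 (1.24-fold, limma adjusted p = 0.0484), close to the threshold. The call was lost with cyclic loess scaling (adjusted p = 0.103), without the samples numbered 3 of both groups (0.106) and in every fit without 1 sample apart from that without Nkx2-1 high replicate 3 (up to 0.164). Srebf1, whose product acts mainly on fatty acid synthesis and which is itself a liver X receptor target, stood at 8.17, 8.15 and 8.25 in Nkx2-1 high against 7.91, 7.96 and 7.99 in Nkx2-1 low. Every Nkx2-1 high level was above every Nkx2-1 low level, yet the difference of 0.24 ± 0.07 did not pass (adjusted p = 0.107). With a mean-variance trend and robust eBayes it passed (adjusted p = 0.0454).

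Srebf1 and Srebf2 thus had differences of opposite sign. The difference Srebf1 minus Srebf2 within each sample was 0.55 ± 0.03 (SE) higher in Nkx2-1 high, with no overlap of the groups (two-sided exact permutation p = 0.1, the smallest that 3 samples against 3 allow, and 0.16 adjusted over the 8 pairs of related genes compared). Insig1, which holds the SCAP-SREBP complex in the endoplasmic reticulum and is also a known SREBP target, had levels from 9.95 to 9.98 in Nkx2-1 high and from 9.97 to 10.02 in Nkx2-1 low. Its groups overlapped, and the difference was -0.03 ± 0.07 with a 95% interval of -0.19 to 0.12. Insig2, its paralog, stood at 7.21, 7.24 and 7.20 in Nkx2-1 high against 7.24, 7.20 and 7.30 in Nkx2-1 low and differed by -0.03 ± 0.07 (-0.20 to 0.13). The Insig1 minus Insig2 difference changed by 0.00 ± 0.02 between groups (exact permutation p = 1). Scap, the escort of the SREBP factors, stood at 7.35, 7.30 and 7.36 in Nkx2-1 high against 7.38, 7.47 and 7.57 in Nkx2-1 low. Its samples did not overlap between groups, but its difference of -0.13 ± 0.08 did not pass (limma adjusted p = 0.423).

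The exporter genes Abca1 and Abcg1 rose, while 13 of the 17 enzymes of the mevalonate and sterol steps fell. Abca1, which encodes the transporter that loads cholesterol onto apolipoprotein particles, stood at 7.64, 7.53 and 7.39 in Nkx2-1 high against 6.99, 7.06 and 6.94 in Nkx2-1 low, with no overlap. It rose by 0.52 ± 0.09 (1.44-fold, limma adjusted p = 0.00740) and kept the call in all 6 fits without 1 sample. Abcg1, whose transporter passes sterol to mature lipoprotein particles, stood at 7.77, 7.63 and 7.29 in Nkx2-1 high against 6.94, 6.79 and 6.36 in Nkx2-1 low. It rose by 0.86 ± 0.16 (1.82-fold, adjusted p = 0.0130), the largest rise among the 40 genes. Its spread was wide, with the sample numbered 3 the lowest in each group, and it lost the call without Nkx2-1 high replicate 1 and without Nkx2-1 high replicate 2 (adjusted p up to 0.0582). The difference Abca1 minus Abcg1 did not separate the groups (-0.34 ± 0.17, exact permutation p = 0.2, 0.267 adjusted over the 8 pairs).

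Mylip, a liver X receptor target like both exporters and the gene of a ubiquitin ligase that marks lipoprotein receptors for breakdown, had a difference of the opposite sign. It stood at 8.08, 7.81 and 7.37 in Nkx2-1 high against 8.38, 8.20 and 8.06 in Nkx2-1 low, the groups overlapped, and the difference of -0.46 ± 0.16 did not pass (limma adjusted p = 0.150). As for Abcg1, the sample numbered 3 was the lowest of each group. Stard4, a sterol carrier of the cytosol that SREBP factors control, differed by -0.29 ± 0.09 with no overlap and did not pass (adjusted p = 0.105). The lysosomal exporters of cholesterol did not pass either. Npc1, the membrane protein, stood at 8.17, 8.003 and 8.01 in Nkx2-1 high against 8.08, 8.06 and 7.93 in Nkx2-1 low and differed by 0.03 ± 0.08 (-0.16 to 0.22). Npc2, its soluble partner, stood at 8.16, 8.03 and 8.11 in Nkx2-1 high against 8.04, 8.19 and 8.29 in Nkx2-1 low and differed by -0.07 ± 0.09 (-0.27 to 0.13). Of the 6 genes of sterol transport, 2 rose, 0 fell, and the median difference was -0.02.

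**Figure D3:**
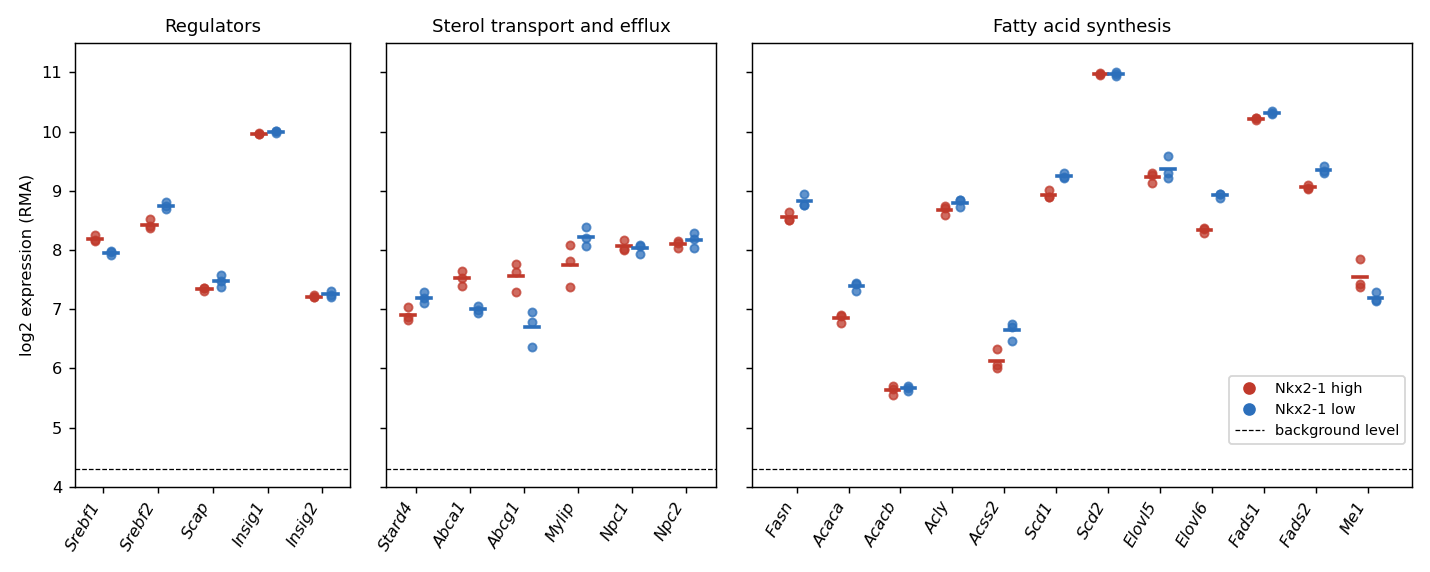
Log2 level (vertical axis) of the regulators, sterol transport genes and fatty acid enzymes (horizontal axis), with a point for each sample, bars for group means and a dashed line at the background level. Abca1 and Abcg1 are higher in Nkx2-1 high (red) and Srebf2, Acaca, Acss2, Scd1 and Elovl6 lower, while Insig1, Insig2, Npc1, Npc2, Acacb and Scd2 overlap with Nkx2-1 low (blue).

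Fatty acid synthesis was lower at 4 of 12 enzymes, with 0 higher (median difference -0.20). Elovl6, the elongase that makes stearate from palmitate, stood at 8.37, 8.36 and 8.28 in Nkx2-1 high against 8.95, 8.94 and 8.87 in Nkx2-1 low. It fell by 0.59 ± 0.07 (1.50-fold, limma adjusted p = 0.00170), with no overlap. Acaca, the cytosolic acetyl-CoA carboxylase that makes malonyl-CoA for synthesis, stood at 6.77, 6.88 and 6.89 in Nkx2-1 high against 7.31, 7.43 and 7.42 in Nkx2-1 low. It fell by 0.54 ± 0.08 (1.45-fold, adjusted p = 0.00367), and a second row of the gene gave -0.58 ± 0.08. Both genes kept the call in all 6 fits without 1 sample. Acss2, which makes acetyl-CoA from acetate, stood at 6.05, 6.01 and 6.32 in Nkx2-1 high against 6.46, 6.70 and 6.76 in Nkx2-1 low and fell by 0.51 ± 0.11 (adjusted p = 0.0255). Scd1, a desaturase that makes oleate, stood at 8.90, 8.89 and 9.01 in Nkx2-1 high against 9.22, 9.23 and 9.29 in Nkx2-1 low and fell by 0.31 ± 0.08 (adjusted p = 0.0413).

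The calls of Acss2 and Scd1 depended on single samples. Acss2 lost its call without replicate 1 or 2 of Nkx2-1 high and without replicate 2 or 3 of Nkx2-1 low (adjusted p up to 0.109), and Scd1 in every fit without 1 sample apart from that without Nkx2-1 high replicate 3 (adjusted p up to 0.156), with cyclic loess (0.0919) and without both samples numbered 3 (0.101). Fasn, the synthase that makes palmitate, had no overlap between groups but did not pass (-0.27 ± 0.09, adjusted p = 0.110). Acly, which makes cytosolic acetyl-CoA from citrate and so feeds both pathways, differed by -0.12 ± 0.08 (-0.30 to 0.06), and its groups overlapped. Me1, the malic enzyme that supplies NADPH, was the only fatty acid gene of the 12 with a positive difference (0.36 ± 0.12, adjusted p = 0.136). Its second row gave 0.40 ± 0.15.

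Related fatty acid enzymes were also compared as 4 pairs, by their difference within each sample. Acacb, the mitochondrial paralog of Acaca that restrains fatty acid import, stood at 5.70, 5.65 and 5.54 in Nkx2-1 high against 5.62, 5.68 and 5.70 in Nkx2-1 low, and its difference of -0.03 ± 0.08 had an interval of -0.21 to 0.14. The difference Acaca minus Acacb was -0.51 ± 0.08 (SE) between groups, without overlap. Scd2, the desaturase paralog of Scd1 that dominates in embryonic tissue, stood at 10.95, 10.98 and 10.97 in Nkx2-1 high against 10.97, 10.94 and 11.003 in Nkx2-1 low, with overlapping groups and a difference of -0.01 ± 0.07 (-0.17 to 0.15). Scd1 minus Scd2 was -0.31 ± 0.04 between groups, without overlap. Paralogs of like sequence can share probe signal, and how far these rows do was not tested.

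Elovl5, an elongase of polyunsaturated fatty acids, stood at 9.29, 9.27 and 9.13 in Nkx2-1 high against 9.59, 9.21 and 9.30 in Nkx2-1 low, where replicate 1 of Nkx2-1 low was the highest and the groups overlapped (-0.14 ± 0.11, limma adjusted p = 0.553). Elovl5 minus Elovl6 was 0.45 ± 0.11 between groups. Fads2, the first desaturase of that route, stood at 9.03, 9.05 and 9.10 in Nkx2-1 high against 9.30, 9.34 and 9.42 in Nkx2-1 low and just missed the threshold (-0.29 ± 0.08, adjusted p = 0.0564). It passed with only genes above background (0.0278), with a trend and robust eBayes (0.0173) and with array weights (0.0281). Fads1, the desaturase of the next step, stood at 10.24, 10.23 and 10.19 in Nkx2-1 high against 10.35, 10.29 and 10.31 in Nkx2-1 low and differed by -0.10 ± 0.07 (-0.26 to 0.06). Fads1 minus Fads2 was 0.19 ± 0.06 between groups. For each of these 4 fatty acid pairs the groups did not overlap, and the exact permutation p was 0.1, the smallest possible, and 0.16 adjusted over the 8 pairs. Npc1 minus Npc2 was 0.10 ± 0.12 (exact permutation p = 0.6, 0.686 adjusted).

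Other genes of the pathway were taken from lists written beside these members. Their counts stand beside 3.09% of all genes that fell and 2.90% that rose. Of 9 further genes of sterol synthesis and uptake that were measured, 2 fell and 0 rose (median difference -0.20). Vldlr, a lipoprotein receptor gene, fell by 0.51 ± 0.08 (limma adjusted p = 0.00658) and kept the call in all 6 fits without 1 sample. Lbr, whose product is a lamin-binding protein with the same sterol reductase activity as that of Tm7sf2, fell by 0.40 ± 0.08 (adjusted p = 0.0173), a call lost without replicate 1 or 3 of Nkx2-1 low (up to 0.0613). Of 10 genes of the isoprenoid branch, which leads to ubiquinone, dolichol and prenylated proteins, 1 fell and 0 rose (median -0.11). It was Coq2, of ubiquinone synthesis (-0.35 ± 0.09, adjusted p = 0.0421), and it lost the call in each of the 6 fits without 1 sample (up to 0.131). Of 8 further genes of SREBP cleavage and of the turnover of sterol sensors, 0 were called by limma and 0 had an unadjusted p under 0.05, a threshold that 8.57% of all genes passed upward and 10.4% downward. The largest difference there was that of Vcp (-0.17 ± 0.08).

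Of 10 genes of the liver X receptors, their targets and sterol export, 0 were called by limma, also with 0 at an unadjusted p under 0.05, and the median difference was 0.08. Pltp, a lipid transfer protein gene and a known target, had the largest difference (0.23 ± 0.15, adjusted p = 0.482). Of these 10 differences 3 were negative, Smpdl3a was not above background, and Nr1h3 was above it only in Nkx2-1 low. Of 14 genes of sterol transfer and storage, 2 rose and 0 fell. Scarb2, a lysosomal membrane protein gene, rose by 0.65 ± 0.12 (adjusted p = 0.0103, lost without Nkx2-1 high replicate 2, 0.0527). Nceh1, an esterase of stored cholesterol, was above background only in Nkx2-1 high and at least 1.23-fold higher there than in Nkx2-1 low (adjusted p = 0.0409, lost in each of the 6 fits without 1 sample, up to 0.137).

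Further fatty acid genes moved both ways, with 3 of 22 higher and 2 lower (median 0.01). Acsl5, a ligase that activates fatty acids with coenzyme A, was 2.17-fold higher (1.12 ± 0.14, limma adjusted p = 0.00154), more than the change of any of the 40 genes. Elovl2, an elongase of very long polyunsaturated chains, rose by 0.59 ± 0.08 (adjusted p = 0.00177). Hsd17b12, the ketoacyl reductase that works with every elongase, fell by 0.57 ± 0.08 (adjusted p = 0.00345). Elovl7, another elongase, rose by 0.35 ± 0.07 (adjusted p = 0.0234), a call lost without replicate 1 or 2 of either group (up to 0.0899). Hacd3, a dehydratase of the elongation cycle, fell by 0.32 ± 0.08 (adjusted p = 0.0486), a call lost in each of the 6 fits without 1 sample (up to 0.136). Elongation enzymes therefore differed in direction, with Elovl6 and Hsd17b12 lower and Elovl2 higher.

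**Figure D4:**
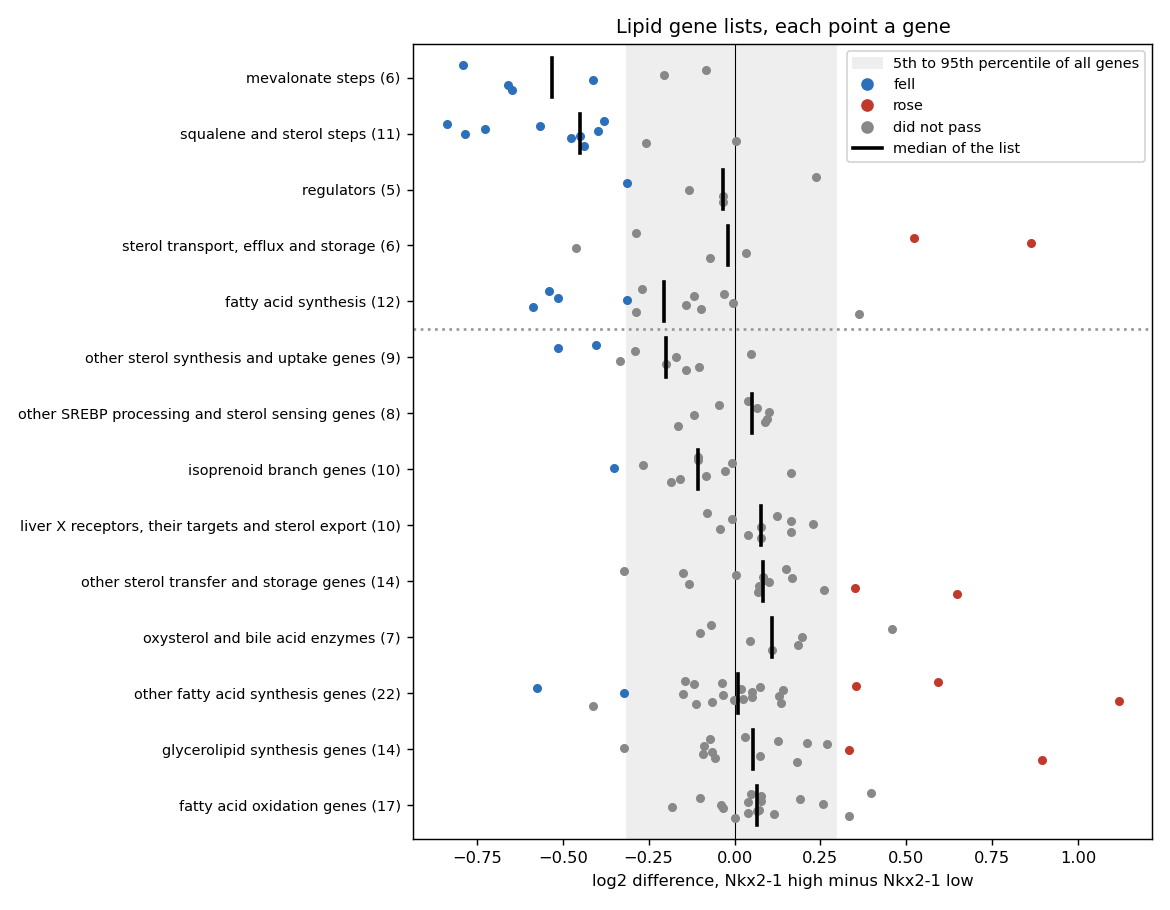
Log2 difference (horizontal axis, Nkx2-1 high minus Nkx2-1 low) of every gene of the 5 roles, above the dotted line, and of 9 further lists of lipid genes, below it, with the number of genes in parentheses. Black bars are list medians and the grey band spans the 5th to 95th percentile of all genes (-0.31 to 0.29). The band shows the spread of single genes for scale and is no test of a list. Blue points mark the genes that fell, 13 of them in the mevalonate and sterol steps, and red points those that rose.

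Markers of other cell types moved with the same contrast. Of 8 mesenchyme markers 6 fell, and the log2 of their summed level ran from 10.70 to 10.98 in Nkx2-1 high and 12.06 to 12.35 in Nkx2-1 low. Of 10 neuron markers 6 fell (8.39 to 8.81 in Nkx2-1 high and 9.30 to 9.36 in Nkx2-1 low), and of 7 neural crest markers 4 fell (9.02 to 9.32 in Nkx2-1 high and 10.50 to 10.64 in Nkx2-1 low). These 4 were Crabp1, Msx1, Snai2 and Tfap2b, the last above background only in Nkx2-1 low. Tfap2a (-0.24 ± 0.16) did not pass, nor did Sox10 (0.16 ± 0.08) and Foxd3 (0.03 ± 0.10), both with positive differences. Of 6 endothelial markers 3 rose (7.99 to 8.33 in Nkx2-1 high and 7.41 to 7.56 in Nkx2-1 low), namely Flt4, Tek and Eng, while Cdh5 was not above background. Pecam1 (0.33 ± 0.10) did not pass, nor did Kdr (-0.08 ± 0.09) and Cdh5 (-0.17 ± 0.10), both with negative differences. Of 9 markers of dividing cells 4 fell, the replication genes Rrm2, Mcm6, Mcm2 and Pcna, while Mki67 differed by -0.03 ± 0.07 and Top2a by -0.04 ± 0.11 (summed level 11.07 to 11.17 in Nkx2-1 high and 11.31 to 11.38 in Nkx2-1 low). Of 8 immediate early genes 6 rose (10.52 to 10.74 in Nkx2-1 high and 9.63 to 9.77 in Nkx2-1 low). The part of these cell types and states in the fall of the sterol enzymes was not tested.

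The lists of cell types known for heavy lipid synthesis held 0 called markers. In the hepatocyte list Alb, Afp, Ttr, Apob and Fgb were not above background and 0 of 7 markers were called by limma, with 0 at an unadjusted p under 0.05 (summed level 6.77 to 6.92 in Nkx2-1 high and 6.82 to 6.91 in Nkx2-1 low). Of 7 adipocyte markers 0 were called, also with 0 at an unadjusted p under 0.05, and Pparg, Adipoq, Fabp4 and Lep were not above background (7.04 to 7.07 in Nkx2-1 high and 6.94 to 7.19 in Nkx2-1 low). Of 6 markers of steroid-producing cells 0 were called, with 0 at an unadjusted p under 0.05, and Cyp11a1, Cyp17a1 and Hsd3b1 were not above background (6.82 to 6.94 in Nkx2-1 high and 6.80 to 7.10 in Nkx2-1 low). Among 6 lung type II markers Sftpc, Lamp3, Slc34a2 and Napsa were not above background, and 0 were called, with 1 lower at an unadjusted p under 0.05 (6.99 to 7.17 in Nkx2-1 high and 6.87 to 7.05 in Nkx2-1 low). Of 7 oligodendrocyte and astroglia markers 0 were called, with 0 at an unadjusted p under 0.05, and Mog, Gfap and Aqp4 were not above background (7.001 to 7.16 in Nkx2-1 high and 6.96 to 7.12 in Nkx2-1 low). Of 6 markers of sebaceous and keratinised epithelium 0 were called, with 0 at an unadjusted p under 0.05 (7.15 to 7.27 in Nkx2-1 high and 7.16 to 7.19 in Nkx2-1 low). Endoderm was listed apart from these cell types. Among its 6 markers Epcam fell (7.37 to 7.69 in Nkx2-1 high and 7.69 to 8.03 in Nkx2-1 low), and Sox17 was not above background. At an unadjusted p under 0.05 by limma, 3 of the 6 were lower and 0 higher, where 10.4% of all genes were lower. The difference was negative for 5 of the 6.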

How the data were processed

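Per the labels' protocols, RNA was amplified before biotin labelling (WT-Ovation Pico), which can alter relative signals. The authors deposited 1 log2 value per transcript cluster and array. The method was RMA, per the submitters' processing notes, with neither a version nor a genome build given in the sources used here. No source states the log2 scale, which was inferred from RMA and from the values (array medians 4.98 to 5.06). Of 29011 rows, 21789 carried 1 gene symbol, 1621 several and 5601 none. Only single-symbol rows were used, which gave 19938 genes. The background level is the 95th percentile of the values of 1210 olfactory and vomeronasal receptor rows.

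The 3 Nkx2-1 high and 3 Nkx2-1 low samples entered a fit by group alone (limma 3.58.1, R 4.3.3), and p-values were adjusted by Benjamini-Hochberg over 19938 genes at a threshold of 0.05. Pairs of related genes were compared by their difference within each sample with an exact two-sided permutation test. The precision is limited by the number of arrays.

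The 42 genes and all lists were chosen with earlier results of these data known. Members given sample by sample are up to 6 called genes of each role with the largest difference (2 where none was called), every regulator and both genes of each pair, and Ebp and Mylip were added after their values were seen. Of each other list up to 3 called genes with the largest difference are named, or the largest of a pathway list with none, and Elovl7, Hacd3 and the fourth called gene of dividing cells, with Mki67 and Top2a, were added after their values were seen. The fourth called gene of neural crest was added likewise, with the values of Tfap2a, Sox10, Foxd3, Pecam1, Kdr and Cdh5. Promoter strings were searched on both strands of the 250 bases before each start. Figures were drawn with matplotlib 3.10.9. The alternatives were 2 other scalings (array centring, cyclic loess), only genes above background, robust eBayes with a trend, weights per array, the replicate number as a block, the mean over rows or all rows of a gene, and fits without 1 sample or without both samples numbered 3.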

Additional observations from a re-analysis of the deposited data

How the results depend on the processing

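All 20 called genes of the 40 kept their sign in all 15 alternatives, and 12 kept the call in all 6 fits without 1 sample. Over the 9 other alternatives, 344 of 360 values kept call and direction, 7 lost the call, 9 gained it and 0 reversed. In the fits without 1 sample, the number of genes differing between Nkx2-1 high and Nkx2-1 low ran from 624 to 1086 (1196 with all samples), that of genes lower in Nkx2-1 high from 284 to 515, and it was 407 without the samples numbered 3. For the 40 genes the number called ran from 12 to 19, with 11 to 17 lower and 1 to 2 higher. By role it ran from 3 to 4 for mevalonate steps, from 6 to 8 for sterol steps, from 0 to 1 for regulators, from 1 to 2 for sterol transport, from 2 to 4 for fatty acid synthesis and from 6 to 13 for the other genes of the pathway. Such fits hold fewer samples by construction. Of the regulators, 0 were called with cyclic loess, 0 without the samples numbered 3 and 2 with a trend and robust eBayes, where Srebf1 joined Srebf2. Same-numbered samples of the 2 groups deviated together at r = 0.18, -0.00 and 0.28, and samples of unlike number at -0.27 to 0.15. No label says that the number marks a shared culture, so the numbers were not taken to pair samples. Whether same-numbered samples share a factor was not tested. With the replicate number as a block, 22 of the 40 genes were called, Mylip (lower, adjusted p = 0.0234) and Me1 (higher, 0.0482) in addition to the 20. The sterol element lay in 4 members with 1 more free base and in 3 without its last base, against 1 in its full form. With 3 arrays a group, the SE of the 40 differences ran from 0.07 to 0.16, and all 40 genes were above background.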

Other observations

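Among 14 glycerolipid genes 2 rose, 0 fell and 12 did not pass (median difference 0.05), where 2.90% of all genes rose. Pnpla3, a lipase and acyltransferase gene of lipid droplets that SREBP and carbohydrate signals induce in liver, stood at 6.51, 6.46 and 6.998 in Nkx2-1 high against 5.53, 5.90 and 5.85 in Nkx2-1 low and rose by 0.89 ± 0.15 (1.86-fold, limma adjusted p = 0.00797) with no overlap, and it kept the call in all 6 fits without 1 sample. Lpin2, a phosphatidate phosphatase gene, rose by 0.33 ± 0.08 (adjusted p = 0.0441), a call kept in 1 of the 6 fits without 1 sample, that without Nkx2-1 high replicate 3 (up to 0.149).

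Of 17 genes of fatty acid oxidation 0 were called by limma (median difference 0.07). At an unadjusted p under 0.05, 3 were higher and 0 were lower, where 8.57% of all genes were higher and 10.4% lower. Ppara and Ppargc1a were not above background, and Ppargc1a is among the 3 higher. Cpt1a, which admits fatty acids to mitochondria, had the largest difference (0.40 ± 0.14, limma adjusted p = 0.165). Of 7 oxysterol and bile acid enzymes 0 were called by limma, and at an unadjusted p under 0.05 again 3 were higher and 0 were lower. Cyp7b1, which clears oxysterols, had the largest difference (0.46 ± 0.17, adjusted p = 0.170), and Ch25h, Cyp27a1 and Cyp7a1 were not above background. Cyp7a1 is among the 3 higher oxysterol and bile acid enzymes.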
